A study of Mus musculus with 3 samples.

Results

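The basement membrane genes described here are the 10 that encode laminin, nidogen, perlecan and agrin chains in the stroma of mouse subcutaneous fat: Lama2, Lama4, Lamb1, Lamb2, Lamc1, Lamc3, Nid1, Nid2, Hspg2 and Agrn. They were taken as a list of names out of 32285 genes in the files, and the list was drawn up with earlier results of these data known. Single cells were measured in 3 wild-type male C57BL/6J mice at 8 weeks of age, with 1 library per replicate and no treatment, from inguinal fat sorted for cells without CD31 and CD45. The replicates are called mouse 1, 2 and 3 here, and the labels do not say whether animals were pooled within a library. After cells with 500 or fewer genes or 5% or more mitochondrial unique molecular identifiers (UMIs) were left out, 12984, 6414 and 15179 cells remained in mice 1, 2 and 3, with 94816520, 78108414 and 99328725 UMIs.

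The cells were divided by raw UMIs of a few lineage marker genes. The progenitor gate held cells with 3 or more UMIs of Dpp4 and Pi16 and at most 1 of Icam1 and Fabp4 (19841 cells). The preadipocyte gate held cells with 4 or more UMIs of Icam1 and Fabp4 and at most 1 of Dpp4 (5561 cells). The regulatory gate held cells with at least 1 UMI each of Clec11a and Fmo2 and at most 1 each of Fabp4 and Dpp4 (1058 cells). Cells that met several gates (264) were left out, and 7853 cells met none. The gates are ranges of marker counts and not sorted cell types. Markers that the gates did not use were compared between them. The 6 progenitor markers (Cd55, Anxa3, Wnt2, Sema3c, Cd248, Ly6a) were all lower and the 6 preadipocyte markers (Pparg, Lpl, Plin2, Cd36, Ggt5, Cebpa) all higher in the preadipocyte than in the progenitor gate, and the 6 regulatory markers (F3, Gdf10, Mgp, Meox2, Cygb, Abcg1) were all higher in the regulatory than in the progenitor gate. The separation was not complete. Of the regulatory markers, 5 were also higher in the preadipocyte than in the progenitor gate, and 5 of the preadipocyte markers were also higher in the regulatory than in the progenitor gate. Between the regulatory and the preadipocyte gate 5 of the regulatory markers were higher and all 6 preadipocyte markers lower, whereas Cygb was not called (log2 fold change 0.21 ± 0.09, SE, adjusted p = 0.0961 in edgeR).

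Basement membranes are thin sheets of matrix that lie against cells. Laminins are trimers of an alpha, a beta and a gamma chain. Many of them, though not all, polymerize at the cell surface, where integrins and dystroglycan hold them. Nidogens bind laminin gamma chains and type IV collagen and so link both networks, and perlecan and agrin are heparan sulfate proteoglycans that add the charge and growth factor binding of the sheet. In adipose tissue each mature adipocyte is wrapped in its own basement membrane, whereas fibroblastic progenitors lie in the interstitial matrix. Lama2 and Lama4 encode alpha chains, Lamb1 and Lamb2 beta chains, and Lamc1 and Lamc3 gamma chains. Nid1 and Nid2 encode the nidogens, Hspg2 perlecan and Agrn agrin.

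The genes lie on 8 mouse chromosomes and, in GENCODE M21 (GRCm38, the mm10 build that the submitters name), none shares exon sequence with another gene on its own strand. Lama2 is at chr10:26980036-27619758 (minus strand) and Lama4 at chr10:38965515-39110188 (plus). Lamb1 is at chr12:31265234-31329644 (plus) and Lamb2 at chr9:108479736-108490530 (plus). Lamc1 is at chr1:153218922-153332786 (minus) and Lamc3 at chr2:31887291-31946539 (plus). Nid1 is at chr13:13437551-13512269 (plus) and Nid2 at chr14:19751265-19811787 (plus). Hspg2 is at chr4:137468769-137570630 (plus) and Agrn at chr4:156165290-156197488 (minus). On the opposite strand, exons of Gm48084 overlap Lama2, those of Gm13441 overlap Lamc3, those of Gm48682 overlap Nid1 and those of Rtraf overlap Nid2. The strand setting of the counting is not given in the sources used here.

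RefSeq promoter windows (GRCm38.p6, 250 bases before to 50 after a RefSeq start) were given for 6 of the genes, Hspg2, Agrn, Lamb1, Lamb2, Lama2 and Nid1. These starts are not always the GENCODE gene starts given above. The Lamb2 window reaches more than 50 bases past the GENCODE start. The Lama2 window (chr10:27616893-27617192) and an Agrn window (chr4:156186210-156186509) lie inside the GENCODE genes. Windows are shown for the beta chain pair, whose levels moved in opposite directions between gates, for the perlecan gene, which was higher in the preadipocyte gate, and for Nid1, which was lower there. Capitals mark GGGCGG, the GC box that Sp family factors bind, on either strand (as CCGCCC on the reverse strand). The Lamb1 window is chr12:31265043-31265342, Lamb2 chr9:108479612-108479911, Hspg2 chr4:137468553-137468852 and Nid1 chr13:13437352-13437651, all on the plus strand.
Lamb1: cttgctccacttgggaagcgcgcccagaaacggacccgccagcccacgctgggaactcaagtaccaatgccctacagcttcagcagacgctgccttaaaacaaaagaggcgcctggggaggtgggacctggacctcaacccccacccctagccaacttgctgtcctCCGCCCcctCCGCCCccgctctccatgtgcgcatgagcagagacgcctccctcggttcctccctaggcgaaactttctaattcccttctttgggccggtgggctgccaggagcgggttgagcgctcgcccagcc
Lamb2: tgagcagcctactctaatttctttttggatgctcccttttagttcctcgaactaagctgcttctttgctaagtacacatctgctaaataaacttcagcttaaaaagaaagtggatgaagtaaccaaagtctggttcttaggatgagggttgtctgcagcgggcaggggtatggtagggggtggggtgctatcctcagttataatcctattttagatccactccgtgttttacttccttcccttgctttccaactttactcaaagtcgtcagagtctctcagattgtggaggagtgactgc
Hspg2: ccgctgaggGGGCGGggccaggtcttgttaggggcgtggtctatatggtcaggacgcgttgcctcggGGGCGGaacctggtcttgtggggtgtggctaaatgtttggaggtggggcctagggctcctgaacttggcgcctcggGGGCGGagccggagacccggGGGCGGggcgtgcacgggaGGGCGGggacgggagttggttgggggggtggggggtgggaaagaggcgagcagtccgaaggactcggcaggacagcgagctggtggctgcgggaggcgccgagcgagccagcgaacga
Nid1: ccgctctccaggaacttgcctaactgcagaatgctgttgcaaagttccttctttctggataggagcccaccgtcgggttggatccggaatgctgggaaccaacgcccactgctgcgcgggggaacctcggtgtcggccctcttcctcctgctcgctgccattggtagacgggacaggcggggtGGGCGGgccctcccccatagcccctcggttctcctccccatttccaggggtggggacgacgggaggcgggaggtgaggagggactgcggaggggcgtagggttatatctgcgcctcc

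The Hspg2 window held 5 GC boxes, Lamb1 2, Nid1 1 and Lamb2 0, beside 35.7% of all 32851 windows in the table with at least 1. Of the windows not shown, those of Agrn held 12 and 2 and that of Lama2 held 1. Neither Agrn nor Lama2 was called between the preadipocyte and the progenitor gate, so no link of GC boxes with direction is read from these counts. The G and C content was 70.3% for Hspg2, 64.7% for Nid1, 63.7% for Lamb1 and 44% for Lamb2, where the median window had 52.7%. None of the 4 windows shown held TATAAA, which 13.6% of all windows did, and CCAAT was found once each in Lamb1 and Nid1 (37.4% of all windows hold it). These are descriptions of letters, and no binding was measured.

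Levels are given as CPM, the UMIs of a gene scaled to the total UMIs of the sum, with UMIs summed over the cells of a gate in each mouse, and are compared between gates for the same gene only. Differences were tested on those sums with edgeR's quasi-likelihood test with the mouse as a block, in 13258 genes with the gate genes left out, at an adjusted p (Benjamini-Hochberg over all genes) under 0.05. The preadipocyte gate differed widely from the progenitor gate, with 56.4% of all genes called (27.2% higher, 29.2% lower). Of the 10 basement membrane genes, 4 were higher, 4 were lower and 2 were not called, so that the share called (8 of 10) has to be read against that background, and the median log2 fold change was -0.10 beside 0.00 for all genes. Between the regulatory and the progenitor gate 42.9% of genes were called (18.9% higher, 24.0% lower), and 3 of the 10 were higher and 5 lower. Between the regulatory and the preadipocyte gate 25.7% of genes were called (12.3% higher, 13.4% lower), and 1 of the 10 was higher and 8 were lower, with a median log2 fold change of -0.84 beside -0.04 for all genes. These comparisons share the same sums of each gate. In such sums, fewer cells that express a gene and less RNA of it per cell cannot be told apart.

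**Figure D1:**
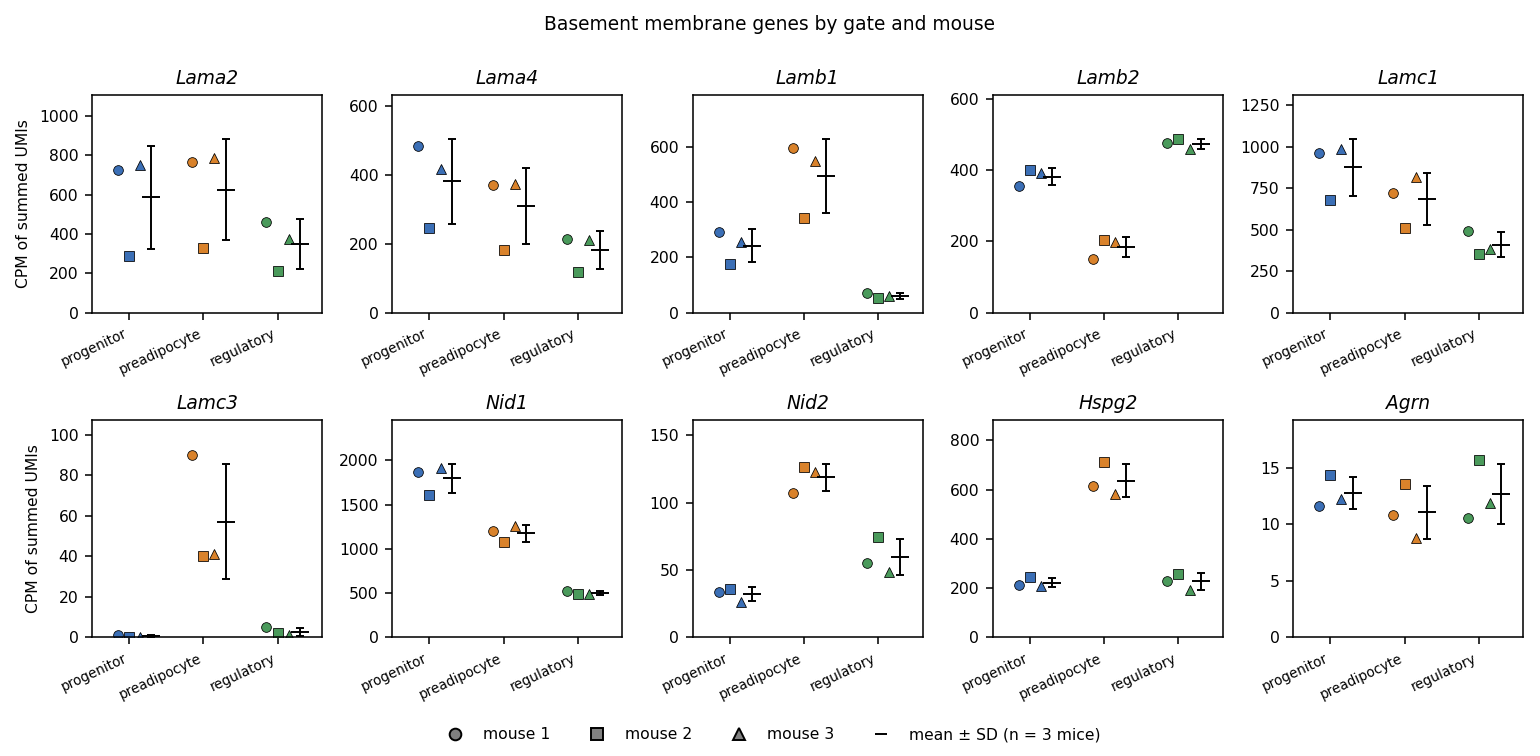
CPM of summed UMIs (vertical axis, from 0, its own scale for each gene) of the 10 genes in the progenitor, preadipocyte and regulatory gates, with circles, squares and triangles for mice 1, 2 and 3 and a bar for the mean ± SD of 3 mice. Lamb1, Nid2, Hspg2 and Lamc3 are highest in the preadipocyte gate in every mouse, Lamb2 is highest in the regulatory gate, and mouse 2 is lowest for Lama2, Lama4, Lamb1, Lamc1 and Nid1 in every gate.

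The beta chains went opposite ways. Lamb1, the beta chain of the widespread laminins, was at 291, 175 and 257 CPM in the progenitor gate of mice 1, 2 and 3, at 595, 343 and 548 CPM in the preadipocyte gate and at 69.5, 50.8 and 58.4 CPM in the regulatory gate. The groups did not overlap in any pair of gates. Lamb1 was higher in preadipocyte-gate than in progenitor-gate cells by a log2 fold change of 0.98 ± 0.07 (SE, n = 3 mice, adjusted p = 1.62e-07 in edgeR). It was lower in regulatory-gate cells than in progenitor-gate cells (-1.98 ± 0.09, adjusted p = 7.6e-09) and lower than in preadipocyte-gate cells (-2.96 ± 0.09, adjusted p = 2.17e-09), which is 8.31-fold in the means. Lamb2, the beta chain prominent at synapses and in the glomerulus, stood at 355, 399.8 and 392 CPM in the progenitor gate, at 151, 204 and 198 CPM in the preadipocyte gate and at 477, 487 and 458 CPM in the regulatory gate. Again no groups overlapped, and the order of the gates was turned round. The log2 fold change of Lamb2 was -1.11 ± 0.09 in the preadipocyte against the progenitor gate (adjusted p = 3.04e-07), 1.42 ± 0.09 in the regulatory against the preadipocyte gate (adjusted p = 3.16e-07) and 0.31 ± 0.09 in the regulatory against the progenitor gate (adjusted p = 0.014). The last of these calls was lost with the mouse left out of the model (adjusted p = 0.215).

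Because both chains were counted in the same sums, their ratio needs no scaling between gates. The log2 ratio of Lamb2 to Lamb1 UMIs was 0.29, 1.19 and 0.61 in the progenitor gate of mice 1, 2 and 3, -1.98, -0.75 and -1.47 in the preadipocyte gate and 2.78, 3.26 and 2.97 in the regulatory gate. Within each mouse the order was the same. The ratio was lower in the preadipocyte than in the progenitor gate by a log2 difference of -2.10 ± 0.16 (SD, n = 3), and higher in the regulatory gate by 2.31 ± 0.22 over the progenitor gate and by 4.40 ± 0.38 over the preadipocyte gate. An exact two-sided sign-flip permutation test over 3 mice cannot go below p = 0.25, which each of these reached (0.3 after adjustment over 12 ratio comparisons), so the ratios are given with the spread between mice only.

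**Figure D2:**
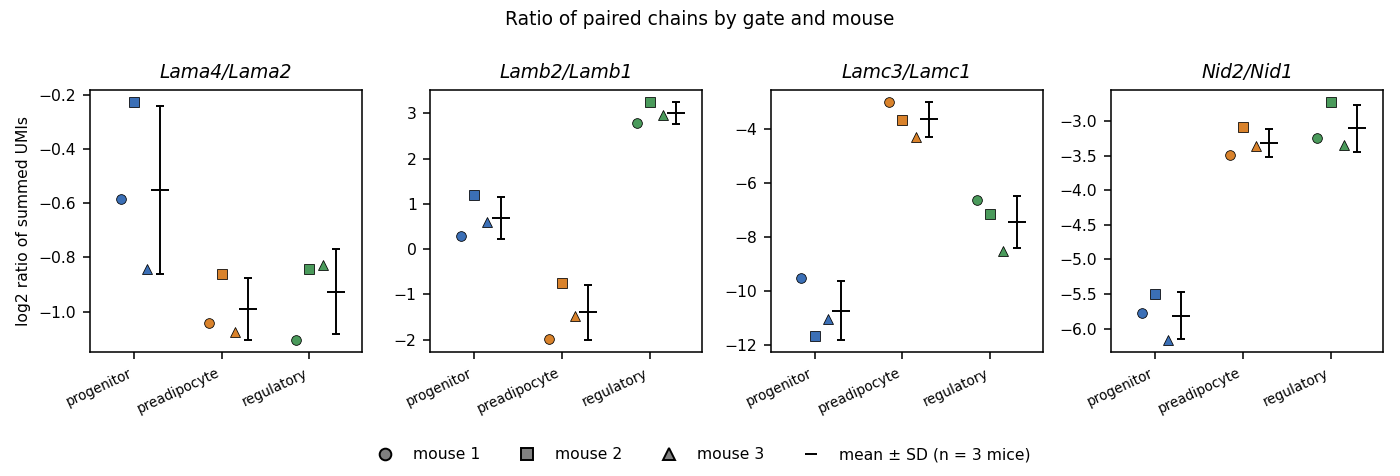
Log2 ratio of the summed UMIs of 4 chain pairs (vertical axis) in the 3 gates (horizontal axis), with a symbol per mouse and a bar for the mean ± SD of 3 mice; only differences between gates are read, since 3′ counts of separate genes are not on a common scale. The ratio of Lamb2 to Lamb1 falls from the regulatory over the progenitor to the preadipocyte gate in every mouse, and that of Lama4 to Lama2 overlaps between the preadipocyte and regulatory gates.

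Among the gamma chains, the main difference was in the rarer gene. Lamc3, a gamma chain found in few tissues, was at 1.30, 0.21 and 0.47 CPM in the progenitor gate (107 UMIs in all), at 90.03, 40.4 and 40.97 CPM in the preadipocyte gate (2951 UMIs) and at 4.91, 2.43 and 1.03 CPM in the regulatory gate (18 UMIs). The preadipocyte gate stood above the others in every mouse, with mouse 1 higher than mice 2 and 3. The log2 fold change of preadipocyte over progenitor gate was 6.36 ± 0.15 (adjusted p = 3.67e-11), or 86.5-fold in the means, and that of regulatory over preadipocyte gate was -4.25 ± 0.26 (adjusted p = 2.26e-07). Regulatory-gate Lamc3 was called higher than progenitor-gate Lamc3 (2.103 ± 0.504, adjusted p = 0.00512), but the groups overlapped, the call rests on 18 UMIs, and it was lost at 3000 UMIs per cell (1.24, adjusted p = 0.413) and without cells that had UMIs of other cell types (1.41, adjusted p = 0.0862). For the test at 3000 UMIs the gates were applied again to the thinned counts. This left 160, 255 and 221 regulatory-gate cells in mice 1, 2 and 3, against 270, 384 and 404 before thinning. Lamc1, the gamma chain of most laminins, was at 962, 677 and 987 CPM in the progenitor gate, at 723, 512 and 815 CPM in the preadipocyte gate and at 492, 352 and 385 CPM in the regulatory gate. It was lower by 0.42 ± 0.09 on the log2 scale in the preadipocyte than in the progenitor gate (adjusted p = 0.00214), where the groups overlapped but each mouse was lower. In the regulatory gate it was lower than in both others, with log2 fold changes of -1.08 ± 0.10 (adjusted p = 2.51e-06) against the progenitor and -0.67 ± 0.10 (adjusted p = 0.000309) against the preadipocyte gate. The log2 ratio of Lamc3 to Lamc1 was accordingly higher in the preadipocyte than in the progenitor gate by 7.08 ± 0.80 (SD, n = 3 mice).

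Both alpha chains were lower in the regulatory gate than in the other gates. Lama2, the alpha chain of muscle and peripheral nerve laminin, was at 723, 285 and 748 CPM in the progenitor gate, at 764, 328 and 785 CPM in the preadipocyte gate and at 463, 211 and 374 CPM in the regulatory gate. Mouse 2 was the low sample in each gate, so the groups overlapped. Against the progenitor gate, Lama2 gave a log2 fold change of 0.06 ± 0.09 in the preadipocyte gate (adjusted p = 0.598) and of -0.69 ± 0.09 in the regulatory gate (adjusted p = 8.38e-05). Lama4, the alpha chain of blood vessels and of the adipocyte surface, was at 483, 244 and 417 CPM, 371, 181 and 373 CPM, and 215, 117 and 211 CPM in the same gates and mice. The preadipocyte gate was lower than the progenitor gate in every mouse (log2 fold change -0.38 ± 0.07, adjusted p = 0.000334), and the regulatory gate was lower still (-1.07 ± 0.07 against the progenitor gate, adjusted p = 2.2e-07). Against the preadipocyte gate, the regulatory gate was lower for Lama2 (-0.75 ± 0.09, adjusted p = 9.12e-05) and Lama4 (-0.69 ± 0.07, adjusted p = 2.18e-05). The ratio of Lama4 to Lama2 between these gates differed by 0.07 ± 0.16 (SD, n = 3 mice) on the log2 scale, which is within the spread. With the mouse left out of the model, the Lama4 and Lamc1 calls in the preadipocyte against the progenitor gate were lost (adjusted p = 0.429 and 0.14), as was the Lama2 call in the regulatory gate (adjusted p = 0.212 against the progenitor and 0.286 against the preadipocyte gate) and the Lama4 call in the regulatory against the preadipocyte gate (adjusted p = 0.21).

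Mouse 2, the most deeply covered library per cell (median 12192.5 UMIs, against 7392.5 and 6667 in mice 1 and 3), was the lowest sample for Lama2, Lama4, Lamb1, Lamc1 and Nid1 in all 3 gates. Lamb2, Nid2, Hspg2 and Agrn were highest in mouse 2 in every gate, and only Lamc3 was neither. The differences between gates are taken within each mouse, and without mouse 2 the preadipocyte against progenitor log2 fold changes were 0.02 for Lama2, -0.32 for Lama4, 1.01 for Lamb1 and -0.39 for Lamc1. Which property of that library goes with these levels was not tested.

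The nidogens also differed in direction. Nid1, the major nidogen, was at 1870.0, 1614 and 1916 CPM in the progenitor gate, at 1202, 1073 and 1262 CPM in the preadipocyte gate and at 527, 489 and 493 CPM in the regulatory gate. Each gate stood clear of the next in all mice. The log2 fold change of Nid1 was -0.66 ± 0.07 in the preadipocyte gate (adjusted p = 3.13e-06) and -1.84 ± 0.07 in the regulatory gate (adjusted p = 1.65e-09), both against progenitors, and -1.17 ± 0.07 between regulatory and preadipocyte gates (adjusted p = 2e-07). Nid2, its vascular-enriched paralogue, was at 34.01, 35.8 and 26.6 CPM in the progenitor gate, at 107, 126 and 123 CPM in the preadipocyte gate and at 55.5, 74.4 and 48.6 CPM in the regulatory gate. Here the progenitor gate was lowest and the preadipocyte gate highest, without overlap. The log2 fold change was 1.84 ± 0.10 for preadipocyte over progenitor gate (adjusted p = 8.55e-09), 0.91 ± 0.13 for regulatory over progenitor gate (adjusted p = 0.000101) and -0.93 ± 0.12 for regulatory against preadipocyte gate (adjusted p = 0.000121). The log2 ratio of Nid2 to Nid1 was thus higher than in the progenitor gate by 2.50 ± 0.27 (SD) in the preadipocyte and by 2.71 ± 0.16 in the regulatory gate, and these last gates differed by 0.21 ± 0.18 (n = 3 mice). Rtraf, whose exons overlap Nid2 on the other strand, had a log2 fold change of -0.03 ± 0.06 (SE) in the preadipocyte against the progenitor gate (adjusted p = 0.645).

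Of the proteoglycans, perlecan changed and agrin did not pass the test. Hspg2 was at 215, 244 and 210.5 CPM in the progenitor gate, at 616, 714 and 583 CPM in the preadipocyte gate and at 231, 259 and 193 CPM in the regulatory gate. All preadipocyte-gate values lay above all others, and the remaining gates overlapped. The log2 fold change was 1.46 ± 0.07 for preadipocyte over progenitor gate (adjusted p = 2.35e-09), -1.44 ± 0.07 for regulatory against preadipocyte gate (adjusted p = 5.14e-08) and 0.02 ± 0.07 for regulatory against progenitor gate (adjusted p = 0.845). Agrn was low throughout, at 11.7, 14.4 and 12.3 CPM in the progenitor gate, 10.8, 13.6 and 8.84 CPM in the preadipocyte gate and 10.5, 15.7 and 11.9 CPM in the regulatory gate. Its log2 fold changes were -0.27 ± 0.11 (preadipocyte against progenitor, adjusted p = 0.0557), 0.26 ± 0.16 (regulatory against preadipocyte, adjusted p = 0.281) and -0.00 ± 0.16 (regulatory against progenitor, adjusted p = 0.998).

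**Figure D3:**
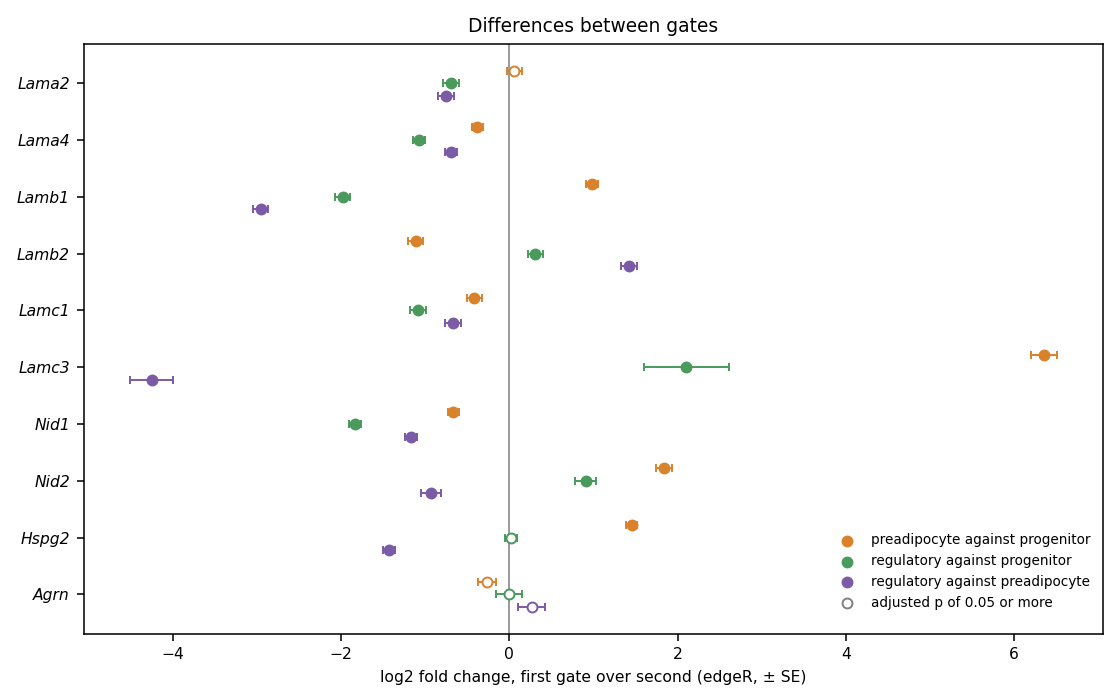
Log2 fold changes of the 10 genes (horizontal axis, first-named gate over second, edgeR with mouse as a block) in 3 comparisons given by colour, with bars for ± 1 SE and open circles where the adjusted p was 0.05 or more. Lamc3 (6.36), Nid2 (1.84), Hspg2 (1.46) and Lamb1 (0.98) lie to the right for preadipocyte over progenitor gate, and 8 genes lie to the left for regulatory against preadipocyte gate, where only Lamb2 (1.42) is called to the right.

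The share of cells with at least 1 UMI of a gene depends on depth, and regulatory-gate cells were shallower (median 4575 to 10104.5 UMIs, against 7296 to 12977 in the preadipocyte gate), so each cell was thinned to 3000 UMIs and 212 of the 1058 regulatory-gate cells, 161 preadipocyte-gate and 1436 progenitor-gate cells with fewer were left out. At equal depth Lamc3 was detected in 0.15% ± 0.07 (SD, n = 3 mice) of progenitor-gate, 13.4% ± 5.5 of preadipocyte-gate and 0.42% ± 0.49 of regulatory-gate cells. Without thinning these shares were 0.42%, 25.6% and 0.96%. In mouse 3 none of 295 regulatory-gate cells had a UMI, which allows a share of up to 1.02% (counting error only), so the low shares of the regulatory and progenitor gates were not distinguished. Hspg2 was detected in 47.2% ± 3.0 of progenitor-gate, 80.7% ± 3.5 of preadipocyte-gate and 44.3% ± 9.3 of regulatory-gate cells. Lamb1 was found in 47.6% ± 7.6, 68.9% ± 10.2 and 14.0% ± 0.8 of cells of these gates, Lamb2 in 65.6% ± 2.1, 39.5% ± 5.4 and 71.8% ± 0.5, and Nid2 in 8.78% ± 1.13, 29.0% ± 2.7 and 16.8% ± 1.9. For Lamb2 the direction turned with depth: the share in the regulatory gate was above that in the progenitor gate by 6.22 ± 1.78 percentage points (SD, n = 3 mice) after thinning, but differed by -4.93 ± 2.72 points without it, so no order of these gates is read from the shares of Lamb2. Nid1 was detected in 98.7% ± 0.6 of progenitor-gate and 94.4% ± 0.6 of preadipocyte-gate cells but in 70.2% ± 1.9 of regulatory-gate cells. Most cells held several of the transcripts at once. Of the 10 genes the median cell had 5 in the progenitor gate of each mouse, 6, 5 and 6 in the preadipocyte gate and 4 in the regulatory gate, and the genes together took 0.37% to 0.50% of all UMIs in the progenitor gate, 0.36% to 0.48% in the preadipocyte gate and 0.20% to 0.26% in the regulatory gate.

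**Figure D4:**
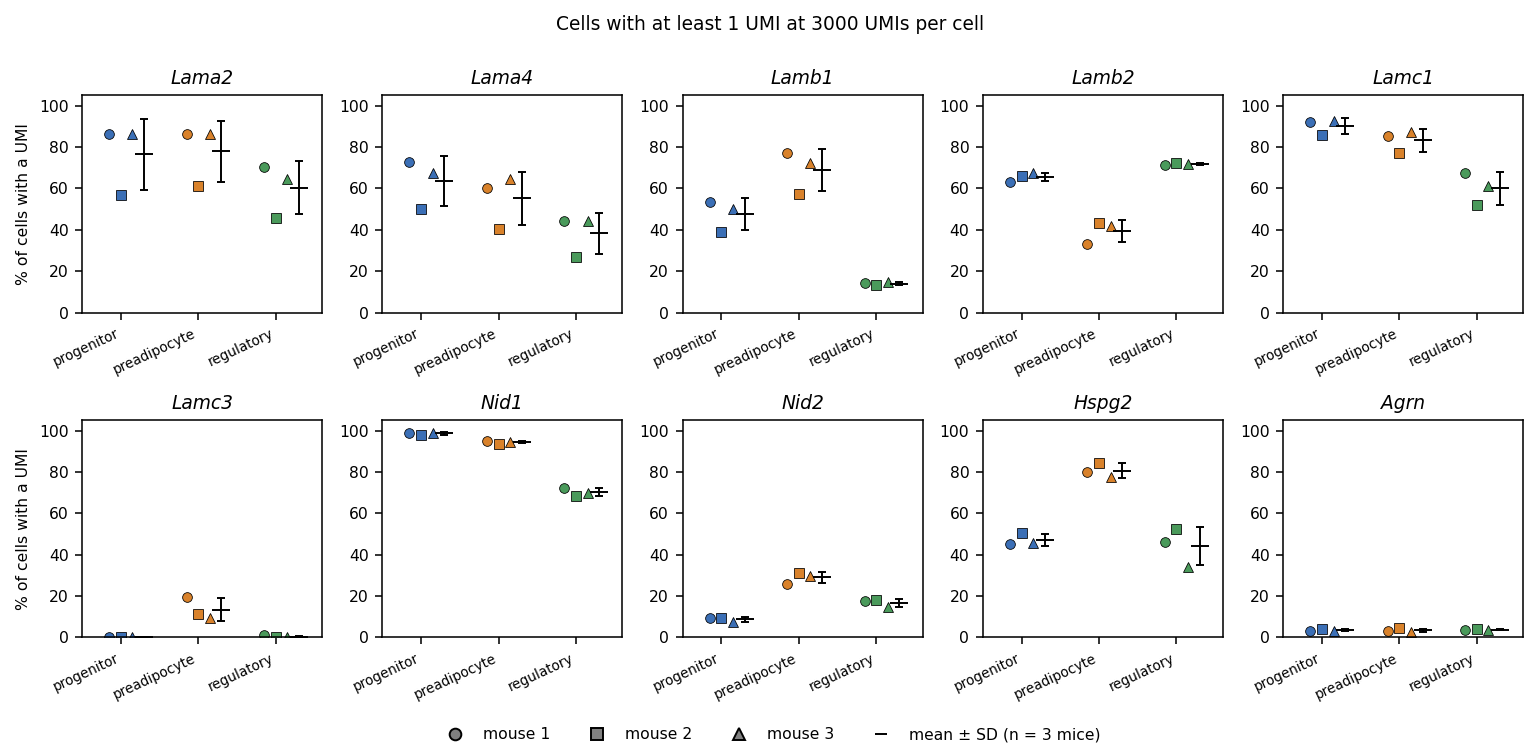
Percent of cells with at least 1 UMI (vertical axis, 0 to 105) after thinning to 3000 UMIs per cell, by gate (horizontal axis), with a symbol per mouse and a bar for the mean ± SD of 3 mice. Lamc3 is seen in 13.4% of preadipocyte-gate cells on average and in under 1% in the other gates, while Nid1 is in 70.2% of regulatory-gate cells and over 94% elsewhere.

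Few cells outside the gates carried markers of other cell types. The 5 cells with leukocyte markers, of 19632 UMIs in all, had 1 UMI of Lamc1, 1 of Hspg2 and none of the other genes, which allows up to 153 CPM (3 UMIs), so for most genes a background of free RNA was not resolved below that level. In 14 cells with endothelial markers Lama2, Lama4, Lamb1, Lamb2, Lamc1, Nid1, Nid2 and Hspg2 were detected and Lamc3 and Agrn were not (114739 UMIs, which allow up to 26.1 CPM), and all 10 genes were detected in 40 cells with mural markers. Endothelial and mural cells make basement membranes themselves, so these cells give no measure of free RNA. They also held UMIs of the progenitor marker list. The cells with endothelial markers had 6, 5 and 4 of its 6 genes in mice 1, 2 and 3, at a summed 5011, 4769 and 420.1 CPM. Those with mural markers had all 6 in each mouse, at 3134 to 3356 CPM. Within the gates, the summed level of 8 endothelial markers was 2.92 to 8.87 CPM in the progenitor gate, 5.01 to 68.4 CPM in the preadipocyte gate and 5.14 to 6.32 CPM in the regulatory gate, and that of 8 mural markers was 9.77 to 12.8, 34.3 to 62.4 and 14.04 to 24.8 CPM. Of 7 endothelial markers tested, 6 were called higher and 0 lower in the preadipocyte than in the progenitor gate, beside 27.2% and 29.2% of all genes. Epithelial markers were at 111 CPM in the regulatory gate of 1 mouse and at 0 in the other two. Without the cells that held UMIs of these cell types, the log2 fold changes of preadipocyte over progenitor gate were 6.41 for Lamc3, 1.87 for Nid2, 1.48 for Hspg2, 0.99 for Lamb1 and -1.08 for Lamb2. The 17 dissociation-response genes summed to 17205 to 21225 CPM in the progenitor gate, 26933 to 32803 CPM in the preadipocyte gate and 27226 to 30344 CPM in the regulatory gate. Against progenitors, 12 of 17 were called higher and 2 lower in the preadipocyte gate, beside 27.2% and 29.2% of all genes. In the regulatory gate 12 were called higher and 1 lower, beside 18.9% and 24.0% of all genes. The part of the dissociation-response genes in the differences was not tested.

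Within the preadipocyte gate, the same genes were followed along Fabp4, the fatty acid binding protein that rises in adipogenesis and that the gate uses. The gate takes 4 or more raw UMIs of Icam1 and Fabp4 together, so cells with few Fabp4 UMIs could enter it through Icam1. The bins can thus differ in how cells met the gate as well as in Fabp4, and neither Icam1 nor the endothelial markers were followed over them. These values are a description. At 3000 UMIs per cell, Lamc3 went from 24.9, 11.3 and 6.3 CPM in cells without a Fabp4 UMI over 73.4, 41.1 and 28.4 CPM at 1 to 3 UMIs to 140.2, 86.7 and 80.9 CPM at 4 or more in mice 1, 2 and 3. Lamb1 went from 447, 241 and 411 CPM to 669.9, 405 and 662 CPM, and Hspg2 from 509, 563 and 456 CPM to 666, 831 and 699 CPM. Lamb2 went the other way, from 217, 279 and 288 CPM to 115, 149.5 and 141 CPM. Each of these orders held over all 3 bins in all 3 mice. Nid1 gave a log2 ratio of the highest to the lowest bin of 0.02 ± 0.04 (SD, n = 3 mice) and Lama2 of 0.11 ± 0.14, and Nid2 fell in mouse 1 and was higher in mice 2 and 3 (log2 ratio -0.46, 0.28 and 0.14).

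**Figure D5:**
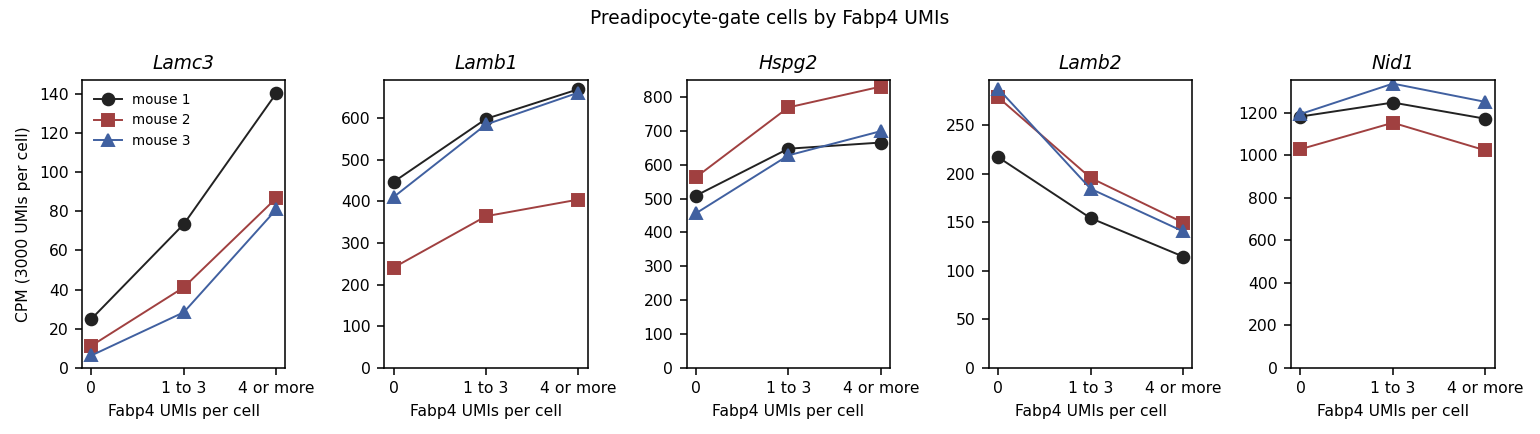
CPM at 3000 UMIs per cell (vertical axis, from 0) of 5 genes in preadipocyte-gate cells with 0, 1 to 3 and 4 or more Fabp4 UMIs (horizontal axis), with a line per mouse. Lamc3, Lamb1 and Hspg2 go up and Lamb2 goes down over the bins in all 3 mice, and the log2 ratio of Nid1 between the outer bins is 0.02.

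Icam1-marked cells are divided by Cd44 in the study, by clustering of single cells and by sorting on the surface markers ICAM1 and CD44. Here preadipocyte-gate cells with 2 or more Cd44 UMIs (930 cells, Cd44-high) were compared with those that had none (3470 cells, Cd44-low). This split uses RNA counts in a gate that Fabp4 alone can fill, so its groups are not those of the study. Cd44-high cells were also deeper in each mouse (median 8861.5, 13729 and 7578.5 UMIs in mice 1, 2 and 3, against 7863, 12606.5 and 7118). The differences in the basement membrane genes were small. Of 11283 genes, 18.1% were called (1377 genes or 12.2% higher and 661 or 5.86% lower), and among the 10 genes 4 were higher, 2 lower and 4 not called. Lamb2 was at 156, 239.6 and 241 CPM in Cd44-high and 151, 186 and 181 CPM in Cd44-low cells of mice 1, 2 and 3 (log2 fold change 0.38 ± 0.08, adjusted p = 0.00631). Lama4 was at 412, 197 and 384 CPM against 357, 168 and 364 CPM (0.27 ± 0.06, adjusted p = 0.0116), and the calls of Lamb1 (0.23 ± 0.07, adjusted p = 0.046) and Lamc1 (0.18 ± 0.05, adjusted p = 0.0367) were closer to the threshold. Lamc3 was lower, at 76.4, 24.1 and 29.9 CPM against 90.3, 45.5 and 45.6 CPM (-0.45 ± 0.11, adjusted p = 0.019), as was Nid2, at 95.7, 99.6 and 103.0 CPM against 111, 137 and 129 CPM (-0.24 ± 0.07, adjusted p = 0.0418). Only for Nid2 did the groups not overlap. Other genes moved with this split. The 8 endothelial markers summed to 1.85, 3.26 and 0.81 CPM in Cd44-high against 49.6, 106.5 and 7.33 CPM in Cd44-low cells (Cldn5, a tight junction gene of endothelium, -7.54 ± 0.40, adjusted p = 9.03e-07). All 6 progenitor markers were higher in Cd44-high cells, 4 of 6 preadipocyte markers were lower, and of 17 dissociation-response genes 8 were lower and 3 higher. Without cells that had UMIs of other cell types all 6 calls stood, with log2 fold changes of -0.38 for Lamc3 and -0.29 for Nid2, while the part of the other lists was not tested. With the mouse left out of the model all 6 calls were lost (adjusted p = 0.574 to 0.859), as they were at 3000 UMIs per cell (adjusted p = 0.563 to 0.797), where the sign of Lama4 turned (-0.17). For that setting the gates and the Cd44 split were applied again to the thinned counts. This left 36, 27 and 66 Cd44-high cells in mice 1, 2 and 3, against 294, 312 and 324 before thinning. The 3000-UMI values are therefore not those of the same cells at equal depth. The calls also depended on the scaling. With library size in place of TMM, 919 genes were higher and 1262 lower, and Lama4, Lamb1 and Lamc1 were no longer called (adjusted p = 0.0625, 0.22 and 0.271). Lamb1 in CPM was higher in mouse 1 by 0.37 on the log2 scale and differed by -0.00 and 0.02 in mice 2 and 3, and without mouse 1 its call was lost (adjusted p = 0.361). Lamb2 lost its call without mouse 2 (adjusted p = 0.0524) and without mouse 3 (0.111), and the 4 remaining called genes each lost theirs without at least 1 mouse.

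Further basement membrane genes were counted from lists that hold their role. Other laminin chains were rare. Lamb3, a beta chain of epithelial laminin, was at 4.74 ± 1.58 CPM (SD, n = 3 mice) in the progenitor gate and under 1.4 CPM on average in the others, and was lower than in progenitors in the preadipocyte gate (log2 fold change -3.63 ± 0.39 (SE), adjusted p = 6.55e-06) and in the regulatory gate (-2.17 ± 0.62, adjusted p = 0.0142). Lama5 was under 0.6 CPM on average in every gate, and Lama1 and Lama3 were not tested.

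The collagens that lie in or beside basement membranes were mostly higher in the preadipocyte gate. Of 8, 6 were higher and 2 lower in the preadipocyte than in the progenitor gate, beside 27.2% and 29.2% of all genes, with a median log2 fold change of 2.65 beside 0.00. The type IV chains Col4a1 and Col4a2, which form the common network, were at 3600 ± 609.9 and 1603 ± 309 CPM in the preadipocyte gate against 298 ± 94 and 111 ± 43 CPM in the progenitor gate (log2 fold change 3.57 ± 0.12 and 3.84 ± 0.13, adjusted p = 2.57e-10 and 1.95e-10). Col15a1, a collagen at the outer face of the membrane, was at 991 ± 127 against 30.1 ± 10.2 CPM (5.02 ± 0.15, adjusted p = 7.6e-11), and Col4a3 rose by 2.70 ± 0.12 (adjusted p = 1.66e-09). Col4a5 and Col4a6 fell by 0.99 ± 0.06 and 0.98 ± 0.30 (adjusted p = 2.55e-08 and 0.0139). Col4a6 was rare, at a mean of 2.41 CPM in the progenitor and 1.35 CPM in the preadipocyte gate. In the regulatory gate 6 of the 8 were higher and 1 lower than in progenitors (all genes 18.9% and 24.0%), among them Col15a1 (3.82 ± 0.14), Col4a2 (2.40 ± 0.12) and Col4a1 (1.96 ± 0.12), with adjusted p at most 6.9e-08 for these. Against the preadipocyte gate 6 of 8 were lower and 1, Col4a5, was higher (all genes 13.4% and 12.3%). Col4a1 (-1.61 ± 0.11), Col4a2 (-1.44 ± 0.12), Col18a1 (-1.40 ± 0.13) and Col4a3 (-1.23 ± 0.17) were lower with adjusted p at most 0.000229.

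Genes for proteins that associate with the membrane were mixed. Of 14 tested, 7 were higher and 5 lower in the preadipocyte than in the progenitor gate, 9 higher and 5 lower in the regulatory than in the progenitor gate, and 7 higher and 2 lower in the regulatory than in the preadipocyte gate, where 56.4%, 42.9% and 25.7% of all genes were called in either direction. The netrins, which are laminin-related proteins, were lower in preadipocyte-gate cells. Ntn4 was at 2.89 ± 0.65 against 53.1 ± 3.6 CPM in progenitors (log2 fold change -4.28 ± 0.10, adjusted p = 3.67e-11) and at 14.5 ± 1.2 CPM in the regulatory gate (-1.82 ± 0.12 against progenitors, adjusted p = 2.19e-07). Ntn1 was at 29.5 ± 4.9 against 162 ± 22 CPM in the preadipocyte and progenitor gates (-2.52 ± 0.08, adjusted p = 1.27e-10). In the regulatory gate Egflam, whose product pikachurin binds dystroglycan, was at 12.4 ± 3.6 CPM against 0.25 ± 0.18 CPM in progenitors (5.51 ± 0.36, adjusted p = 1.53e-07) and 2.92 ± 0.65 CPM in the preadipocyte gate (2.09 ± 0.31, adjusted p = 0.000309). Fbln1, a fibulin that binds laminin and nidogen, was at 465 ± 31 CPM there against 124 ± 36 CPM in the preadipocyte gate (1.99 ± 0.14, adjusted p = 5.42e-07).

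Of 13 receptor genes tested, 5 were higher and 5 lower in the preadipocyte than in the progenitor gate, and 6 were higher and 3 lower in the regulatory gate against progenitors. Of all genes 27.2% were higher and 29.2% lower in the first comparison and 18.9% and 24.0% in the second. Itga7, a laminin-binding integrin chain of muscle, was at 12.3 ± 2.3 CPM in the preadipocyte gate, 0.45 ± 0.07 CPM in the progenitor gate and 1.35 ± 0.30 CPM in the regulatory gate (log2 fold change 4.69 ± 0.15, adjusted p = 1.62e-10, for preadipocyte over progenitor, and -3.15 ± 0.27, adjusted p = 3.64e-06, for regulatory against preadipocyte). Of 8 mural markers, 7 were also called higher and 1 lower in the preadipocyte than in the progenitor gate. The part of mural cells in the Itga7 difference was not tested. Itga2, a chain of a collagen receptor, was at 1.50 ± 0.26 against 18.1 ± 4.4 CPM in the preadipocyte and progenitor gates (-3.65 ± 0.15, adjusted p = 8.45e-10). Sgcd, a sarcoglycan of the dystrophin complex, was at 26.6 ± 1.6 CPM in the regulatory gate against 7.05 ± 0.38 CPM in the progenitor and 7.77 ± 0.80 CPM in the preadipocyte gate (1.91 ± 0.14, adjusted p = 4.2e-07, and 1.82 ± 0.14, adjusted p = 1.86e-06). Utrn, the dystrophin homologue utrophin, was at 60.7 ± 28.0 against 175 ± 75 CPM in the regulatory and progenitor gates (-1.54 ± 0.10, adjusted p = 1.11e-07).

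Among 17 assembly and heparan sulfate genes tested, 4 were higher and 8 lower in the preadipocyte than in the progenitor gate and 4 higher and 10 lower in the regulatory than in the progenitor gate. The share higher was near that of all genes in both comparisons (27.2% and 18.9%), and 29.2% and 24.0% of all genes were lower. Hs3st1, a heparan sulfate 3-O-sulfotransferase, was at 60.7 ± 11.5 CPM in the progenitor gate, 7.24 ± 0.91 CPM in the preadipocyte gate and 45.3 ± 2.5 CPM in the regulatory gate (-3.11 ± 0.09, adjusted p = 7.24e-11, for preadipocyte against progenitor, and 2.65 ± 0.12, adjusted p = 3.32e-08, for regulatory over preadipocyte). Sulf1, which removes sulfate from heparan sulfate outside the cell, was at 183 ± 51, 39.7 ± 10.6 and 42.5 ± 5.4 CPM (-2.26 ± 0.10, adjusted p = 1.88e-09, and -2.05 ± 0.13, adjusted p = 9.3e-08, against progenitors). Glce, the epimerase of heparan sulfate, was at 14.8 ± 3.1 against 57.1 ± 8.4 CPM in the regulatory and progenitor gates (-1.90 ± 0.12, adjusted p = 9.6e-08). Pxdn, which cross-links type IV collagen, was at 50.3 ± 8.7 against 143 ± 11 CPM there (-1.53 ± 0.19, adjusted p = 3.43e-05).

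In Cd44-high against Cd44-low cells Hs6st1, a heparan sulfate 6-O-sulfotransferase, was higher (0.83 ± 0.20, adjusted p = 0.0127). Larger differences were called in Tinagl1 (-1.62 ± 0.47, adjusted p = 0.0333), Itga2 (1.50 ± 0.46, adjusted p = 0.041) and Hmcn2 (1.245 ± 0.247, adjusted p = 0.00467), which averaged under 10 CPM in both groups. Ntn1 (0.73 ± 0.11), Xylt1 (0.57 ± 0.14), Ndst1 (0.56 ± 0.09) and Col4a5 (0.42 ± 0.08) were higher too, with adjusted p at most 0.0163. Itga1 (-0.72 ± 0.15), Smoc2 (-0.51 ± 0.06), Col4a4 (-0.30 ± 0.09), P4ha2 (-0.23 ± 0.07) and Col15a1 (-0.19 ± 0.05) were lower, with adjusted p at most 0.0485.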

How the data were processed

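Single-cell libraries of 3 wild-type mice were used. The authors deposited UMI counts per gene and cell barcode, whole numbers that were not normalized. The submitters' processing notes name Cell Ranger 2.1.1 and mm10, whereas the file headers name Cell Ranger 4.0.0. The study's methods name another release, of the same major version as the headers, so the exact version is unsettled. Reads in introns, the strand setting and doublet removal are not given in the sources used here, and no doublet caller was run; leaving out the 5% of cells with the most UMIs and cells in several gates stood in for it. Any 2 libraries shared 37 to 59 cell barcodes.

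UMIs were summed per mouse and gate. The test was edgeR's quasi-likelihood test (version 4.0.16 in R 4.3.3, genes kept by filterByExpr, TMM scaling, Benjamini-Hochberg adjustment), with the mouse as a block, since the gates of a mouse come from the same library; deviations of the gates of a mouse correlated at 0.253 to 0.748 over 12995 genes. Gate genes (and Cd44) were left out of counts of calls. The SE is the log2 fold change divided by the square root of F. Positions come from GENCODE M21, which held 32235 of 32285 gene identifiers. Shares have exact (Clopper-Pearson) 95% intervals in the tables behind the text, which cover counting error only, as do the limits from 3 counts. Tested on simulated data for the preadipocyte against the progenitor gate (13264 genes), the fit recovered 100 of 100 genes changed by 1 and 67 of 100 changed by 0.5 on the log2 scale, with 7 false calls. Of 100 genes changed by 0.5, it recovered 48 for regulatory against progenitor and 42 for regulatory against preadipocyte. For Cd44-high against Cd44-low it recovered 47. The simulated counts had a single fixed dispersion and no difference between mice, unlike the data.

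The gene list and all other lists were chosen with earlier results of these data known. Pathway genes were named as the up to 5 largest called changes per direction and comparison, where all mice agreed in sign and a compared gate averaged 10 CPM or more, and genes like Lama2 and Lama4 as the 3 with the highest r among genes of at least 50 CPM. A search of the proteins was not run. Alternatives are listed in the closing section.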

Additional observations from a re-analysis of the deposited data

How the results depend on the processing

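Of the log2 fold changes of the 10 genes under 14 alternatives in each comparison of gates, 135 of 140 (preadipocyte against progenitor), 123 of 140 (regulatory against progenitor) and 138 of 140 (regulatory against preadipocyte) kept direction and side of the threshold. Between Cd44-high and Cd44-low cells 36 of 130 lost the call and 2 changed sign. The 130 include the values of the 4 genes that were not called to begin with and could not lose a call. All 36 losses thus fall on the 6 called genes, and 36 of 130 understates how often their calls were lost. One of these sign changes was in a called gene: Lama4, called higher in Cd44-high cells, went to -0.17 with cells thinned to 3000 UMIs. In genes that were not called, the sign changed in small values: Lama2 to -0.019 with library size in place of TMM (Cd44-high against Cd44-low), Hspg2 to -0.034 with no filter on low counts (regulatory against progenitor), and Agrn in the same comparison, from -0.00 to 0.0073 with library size, 0.018 with DESeq2, 0.052 with under 10% mitochondrial UMIs, 0.012 without the 5% of cells with the most UMIs, 0.019 without cells with UMIs of other cell types, 0.026 with stricter gates, 0.076 with cells in several gates kept, 0.0096 without cells with epithelial UMIs (chosen after seeing the data), 0.040 with no replicate block and between -0.066 and 0.059 with a replicate left out. The log2 difference in the ratio of Lama4 to Lama2 between regulatory and preadipocyte gates ranged from -0.025 to 0.13 when a replicate was left out. Genes called fell, without the replicate block (mouse), from 7471 to 3996, 5694 to 3130 and 3405 to 1531 in the 3 comparisons of gates, and from 2038 to 1 for Cd44; of the 10 genes, the calls lost with it were Lama4 and Lamc1 (preadipocyte against progenitor), Lama2, Lamb2 and Lamc3 (regulatory against progenitor), Lama2 and Lama4 (regulatory against preadipocyte) and all 6 for Cd44. Thinning gave 3369 (regulatory against progenitor), 1924 (regulatory against preadipocyte) and 208 (Cd44) calls, and DESeq2 706 for Cd44. The thinned setting had fewer genes tested and fewer cells per gate, since the gates were applied again to the thinned counts. With a replicate left out, calls ranged from 2053 to 2800 (regulatory against preadipocyte) and from 1059 to 2233 (Cd44), the lowest without mouse 2 in both. Agrn passed the threshold in preadipocyte against progenitor under 3 alternatives (no filter, without the deepest cells, without cells with UMIs of other cell types; adjusted p 0.0388 to 0.0468). Unthinned, the differences in the share of cells with a UMI, preadipocyte minus progenitor gate in percentage points, were -2.93 for Lama4, 14.3 for Lamb1, -19.3 for Lamb2, -1.40 for Lamc1, 25.2 for Lamc3, -1.62 for Nid1, 36.7 for Nid2 and 17.3 for Hspg2. Beyond what fewer genes or samples give, the cause was not tested. Depth limits Lamc3 outside the preadipocyte gate and Agrn in all gates.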

Other observations

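Over 12 sums (3 mice by the 3 gates and the remaining cells), the genes most like Lama2 in log2 CPM among 3320 compared were Syncrip (Pearson r = 0.994), Setd5 (0.994) and Arhgap5 (0.987), and those most like Lama4 were Dync1h1 (0.989), Dsel (0.984) and Tcp1 (0.984). With each mouse's mean removed, a scale chosen after seeing the data, they were Setd5 (0.983), Rbm39 (0.979) and Wapl (0.979) for Lama2, and Nav3 (0.992), Kmt2a (0.991) and Ranbp2 (0.984) for Lama4. The sums of a mouse share its library, so these are descriptions. Only Setd5 was among the 3 for Lama2 on both scales, and none was for Lama4.

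The 7853 cells that met no gate held Lamc3 at 23.2, 6.93 and 8.91 CPM in mice 1, 2 and 3, between the progenitor and preadipocyte gates, and Hspg2 at 449, 448 and 331 CPM.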
